A study of Mus musculus with 6 samples.

Results

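Glycolysis and hypoxia response genes were followed in primary mouse adipose-derived stromal cells (ADSCs) that had shared a culture with regulatory T cells (Treg). The 34 genes were chosen by symbol among the 22186 genes of the deposited table, and all 34 had a row there and passed the filter on low values. They comprise 16 glycolytic enzymes, 4 transporters of glucose or lactate, 4 pyruvate dehydrogenase kinases, 4 genes of the oxygen sensor itself and 6 hypoxia targets outside glycolysis. ADSCs are fibroblast-like cells from fat that can enter several mesenchymal lineages, and Treg are the T cells that restrain immune responses. The groups were WT ADSCs after 48 h of co-culture with Treg (n = 3 libraries) and WT ADSCs labelled as controls (n = 3 libraries), and no treatment other than the co-culture is named. Each of the 3 labelled batches holds 1 library of each group. The labels name no strain, age or number of animals and do not say whether replicates were separate cultures, so the p-values reflect only library-to-library spread, possibly technical. With no other cell type as a co-culture partner, effects particular to Treg and effects of any co-culture cannot be told apart.

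Glycolysis splits glucose into pyruvate, which is reduced to lactate and exported or passed to the mitochondria through pyruvate dehydrogenase. When oxygen is short, the alpha subunits of the hypoxia-inducible factor (HIF) escape their prolyl hydroxylases and raise transcription of most glycolytic enzymes, of pyruvate dehydrogenase kinases that keep pyruvate out of the mitochondria, and of genes for mitophagy and acid handling. Glycolytic genes are also raised by other programmes, among them growth and muscle differentiation, in which muscle-specific isoforms of several enzymes appear. Stromal cells in culture use glycolysis heavily.

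Most glycolytic enzymes were higher after Treg co-culture, while most of the 6 hypoxia targets outside glycolysis among the members were lower. That contrast between lists was not itself tested. In a longer list of hypoxia targets, described below, 10 of 44 tested genes rose and 17 fell. Of the 16 enzymes, 9 rose, 2 fell and 5 did not pass the test, with a median log2 fold change of 0.14. Of the 6 other hypoxia targets none rose, 4 fell and 2 did not pass, with a median of -0.30. That median includes Car9, which did not pass and reached the filter on low values only through the controls. All 4 pyruvate dehydrogenase kinases had lower means after co-culture, 1 of them past the threshold. The test was limma on log2(TPM + 1), where TPM is a length-corrected share of all transcripts, with a Benjamini-Hochberg adjusted p of at most 0.05 over 12405 genes, and fold changes are Treg co-culture over control. Of all genes tested 19.8% rose and 18.0% fell, with a median log2 fold change of 0.00, against 56.2% and 12.5% of the enzymes. Over all 34 members 10 rose and 10 fell, against 37.8% of all genes called in either direction. Groups did not overlap for 25 of the 34 members, of which 12 were higher and 13 lower, against 49.3% of all genes tested (25.3% higher and 24.0% lower). In bulk RNA, fewer cells of a type and less RNA per cell cannot be told apart.

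**Figure D1:**
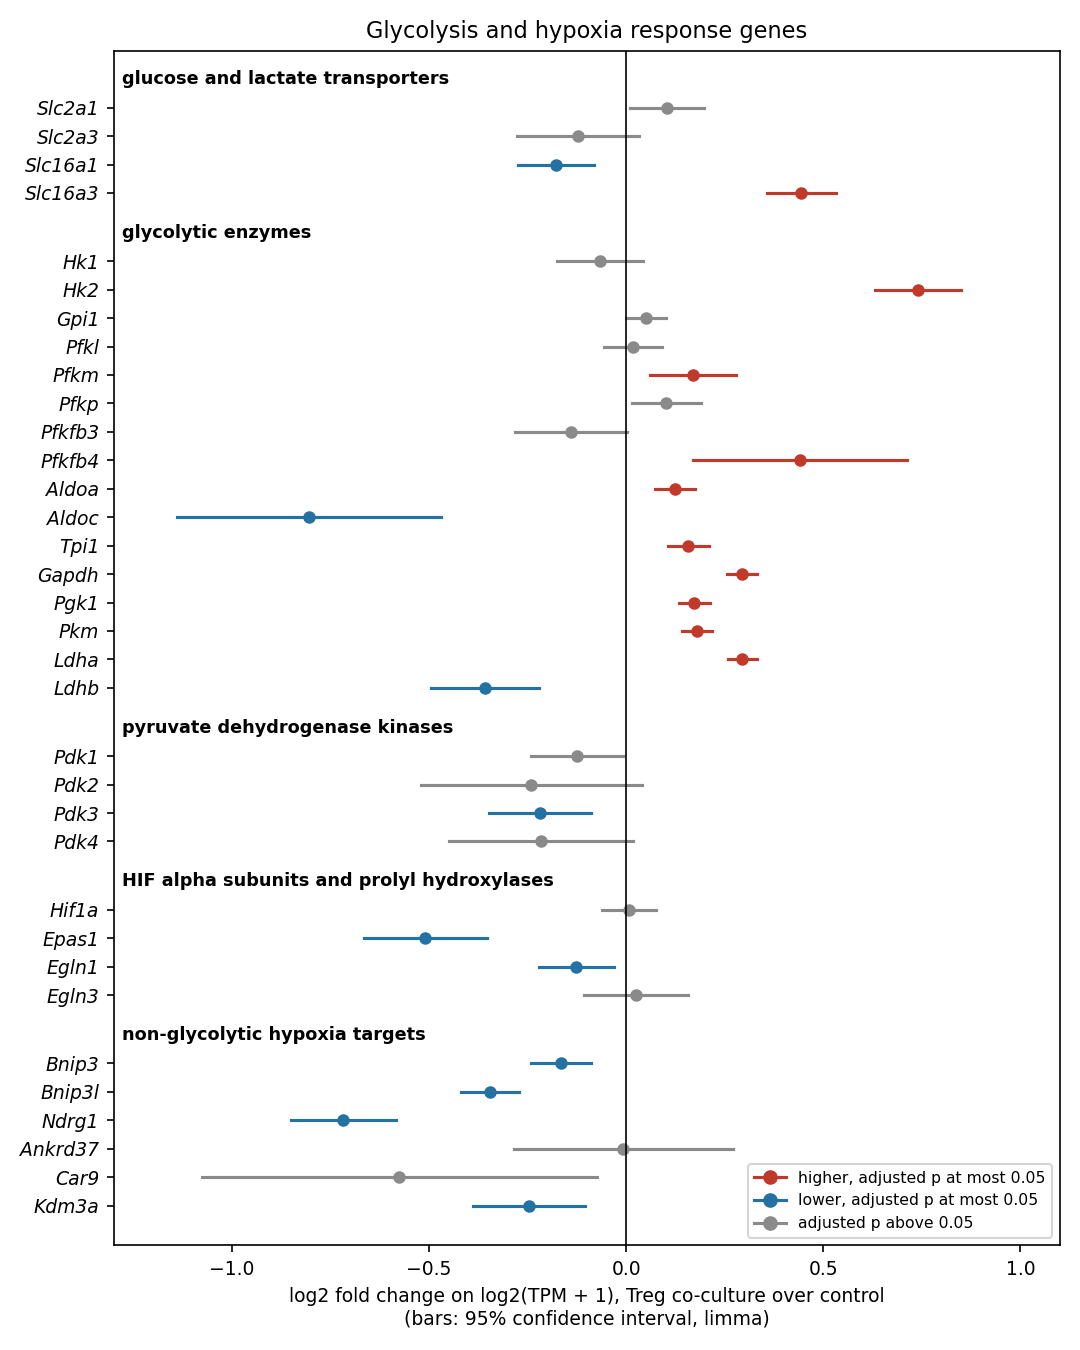
Log2 fold change of each of the 34 members on log2(TPM + 1), Treg co-culture over control, with limma's 95% confidence interval (3 libraries per group), grouped by role. The enzymes lie mostly to the right of 0, from -0.80 (Aldoc) to 0.74 (Hk2), and all 6 non-glycolytic hypoxia targets to the left of it, down to -0.72 (Ndrg1). Car9, among these targets, reached the filter on low values only through the controls.

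Differences in summed level were modest. Summed over the 16 enzymes, the TPM were 11902, 11846 and 11822 in Treg co-culture 1 to 3 and 10088, 10274 and 10273 in controls 1 to 3. That is 1.19% of all TPM after co-culture and 1.02% in controls, a difference of 16.1% of the control sum. Gapdh alone made up 811 of the 1645 TPM between the means, and without it the sum was still 12.6% higher. The 6 non-glycolytic hypoxia targets summed to 311, 314 and 320 TPM in Treg co-culture 1 to 3 and to 402, 386 and 398 TPM in controls 1 to 3, 20.3% lower after co-culture by the means. Neither pair of groups overlapped in its sums, which are given without a test.

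Values that moved together with these genes were those of muscle and of the starting cells. The 8 skeletal muscle markers listed, led by the actin Acta1, all rose, and their summed TPM ran from 3161 to 3234 after co-culture and from 1192 to 1233 in controls. Of 10 adipose stromal markers 7 fell and 2 rose, Cd44 and Eng, the call of Eng being lost with the batch as a replicate block (limma adjusted p = 0.0737). None was at 0 in all libraries, with sums from 7246 to 7615 TPM after co-culture and from 7923 to 8496 TPM in controls, Col1a1 being the most abundant. Among 5 adipocyte markers Lpl and Fabp4 fell, Adipoq and Plin1 passed the filter of 1 TPM only through the controls and are not counted, and Cidec was not tested, with sums led by Lpl of 356 to 373 TPM after co-culture and 587 to 617 TPM in controls. Macrophage markers summed to 60.8 to 72.0 TPM after co-culture and 85.1 to 92.9 TPM in controls, and of 5 tested 1 fell, Lyz2, the most abundant. Endothelial markers, led by Kdr, which rose while Cdh5 fell, summed to 19.4 to 20.6 TPM after co-culture and 20.9 to 22.2 TPM in controls. The part of these cell types in the glycolytic differences was not tested. Of 11 T cell and Treg markers, 7 were listed at 0 in every library (Cd3e, Cd3d, Cd3g, Cd4, Cd2, Il2ra and Ctla4), and Foxp3 reached at most 0.078 TPM. Ptprc, below the filter and not tested, had 0.443, 0.528 and 0.633 TPM after co-culture. Its controls had 0.326, 0.304 and 0.414 TPM, all lower. Lck, also not tested, had 1.01, 0.86 and 1.199 TPM after co-culture and 0.718, 1.203 and 0.859 TPM in controls, with overlap. The sums over the 11 markers, mostly Ikzf2, were 3.63 to 4.17 TPM after co-culture and 3.25 to 3.76 TPM in controls. Treg co-culture 1 stood apart in liver transcripts of sugar metabolism. The gluconeogenic phosphatase gene Fbp1 was listed there at 1.72 TPM and at 0 in the other 5 libraries, and Pck1 at 1.44 TPM against at most 0.099 TPM elsewhere. Counts without that library are given after the gene groups.

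Promoter windows of members that rose and of members that fell both held the core letters of the HIF binding site. RefSeq promoter windows of 300 bases (250 before to 50 after the start site, build GRCm38.p6) matched 30 of the 34 members. The 4 without a window were Epas1, Ndrg1 and Bnip3l, which fell, and Slc2a3, which did not pass. The searched letters were ACGTG and GCGTG, the usual forms of the core, on both strands. A CACGTG counts as ACGTG on both strands and is also a site for other factors. Genes counted if any of their windows matched, and the 30 members had 44 windows, against 32851 windows for all 27025 genes. The members were chosen as glycolysis and hypoxia response genes, so their shares of HIF core letters are not independent of that choice. ACGTG stood in a window of 21 of 30 members (70.0%), against 29.6% of 9870 tested genes with a window and 21.8% of all 27025 genes with a window. It was present for 8 of the 10 members that rose, 5 of 7 that fell and 8 of 13 that did not pass. GCGTG stood in 19 of 30 members (63.3%), against 56.3% of tested genes and 35.2% of all genes with a window. It was found for 4 of the 10 that rose, all 7 that fell and 8 of 13 that did not pass. The E-box CAGCTG, a form bound by muscle-determining factors, stood in 7 of 30 members (23.3%), against 17.9% of tested genes and 18.3% of all genes with a window. It stood in 2 of the 10 that rose, none of the 7 that fell and 5 of 13 that did not pass. Such matches describe the letters, not binding. The windows below are those of the hexokinase, lactate dehydrogenase and lactate exporter genes that rose, and of a mitophagy receptor gene and the other lactate transporter gene, which fell. Capitals mark ACGTG or GCGTG on either strand, and each sequence is on the gene's own strand.
Hk2 (rose; chr6:82774405-82774704, minus strand): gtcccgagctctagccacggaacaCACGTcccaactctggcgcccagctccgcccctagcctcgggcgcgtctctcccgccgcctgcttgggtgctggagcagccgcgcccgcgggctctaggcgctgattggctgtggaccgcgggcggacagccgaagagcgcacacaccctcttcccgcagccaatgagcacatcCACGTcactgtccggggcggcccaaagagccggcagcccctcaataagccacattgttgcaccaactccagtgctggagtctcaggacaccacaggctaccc
Ldha (rose; chr7:46845554-46845853, plus strand): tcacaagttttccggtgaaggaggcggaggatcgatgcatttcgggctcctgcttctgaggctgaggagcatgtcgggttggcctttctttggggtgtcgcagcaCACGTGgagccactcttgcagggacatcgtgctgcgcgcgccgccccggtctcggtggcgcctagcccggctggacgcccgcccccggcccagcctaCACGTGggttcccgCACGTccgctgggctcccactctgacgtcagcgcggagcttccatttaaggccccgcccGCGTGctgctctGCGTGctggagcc
Slc16a3 (rose; chr11:120948817-120949116, plus strand): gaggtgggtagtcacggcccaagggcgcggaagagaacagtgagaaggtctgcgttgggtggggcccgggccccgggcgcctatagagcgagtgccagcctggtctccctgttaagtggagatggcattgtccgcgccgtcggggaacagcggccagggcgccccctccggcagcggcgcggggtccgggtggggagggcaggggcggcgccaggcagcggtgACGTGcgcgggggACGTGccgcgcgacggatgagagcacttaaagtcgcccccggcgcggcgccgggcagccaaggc
Bnip3 (fell; chr7:138909457-138909756, minus strand): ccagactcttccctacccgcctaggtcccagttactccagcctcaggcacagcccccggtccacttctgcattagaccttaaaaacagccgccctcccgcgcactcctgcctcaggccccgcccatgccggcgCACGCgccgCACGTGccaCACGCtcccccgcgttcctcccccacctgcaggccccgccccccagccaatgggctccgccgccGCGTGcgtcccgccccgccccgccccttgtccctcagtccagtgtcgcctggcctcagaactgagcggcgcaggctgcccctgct
Slc16a1 (fell; chr3:104638414-104638713, plus strand): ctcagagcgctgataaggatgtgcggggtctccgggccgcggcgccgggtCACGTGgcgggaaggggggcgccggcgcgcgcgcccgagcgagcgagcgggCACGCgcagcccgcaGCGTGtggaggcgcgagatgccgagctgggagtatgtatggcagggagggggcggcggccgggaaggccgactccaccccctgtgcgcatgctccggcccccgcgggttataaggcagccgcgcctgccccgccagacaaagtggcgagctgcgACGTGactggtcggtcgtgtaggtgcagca
The Ldha window held 7 matches, 5 of them ACGTG, with CACGTG reaching from 145 and from 48 bases before the start site. Bnip3 had 5 matches around a CACGTG that begins 108 bases before its start, Slc16a1 5, and Hk2 and Slc16a3 2 each. The printed windows are examples, and both directions of change occur among them. Tpi1, which rose, had no match, and Pfkfb4, which rose, and Ldhb and Kdm3a, which fell, had at most 1 in any window.

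Glucose enters through facilitative transporters, and neither of the measured members passed the test. Slc2a1, the widespread glucose transporter of proliferating cells, had 102, 96.4 and 104 TPM in Treg co-culture 1 to 3 and 90.7, 93.2 and 97.8 TPM in controls 1 to 3. Its groups overlapped by 1 library (log2 fold change 0.10, SE 0.04, limma adjusted p = 0.0821), and without Treg co-culture 2 it passed (0.13, limma adjusted p = 0.0446). Slc2a3, a high-affinity transporter best known from neurons, had 13.7, 14.8 and 13.2 TPM after co-culture and 15.2, 14.9 and 15.5 TPM in controls (-0.12, 95% interval -0.28 to 0.03, limma adjusted p = 0.200).

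The lactate transporters moved apart. Slc16a3, the monocarboxylate transporter of glycolytic cells that exports lactate and a HIF target, had 98.1, 91.4 and 95.01 TPM in Treg co-culture 1 to 3 and 67.8, 71.2 and 69.2 TPM in controls 1 to 3. All 3 co-culture libraries lay above all controls, and Slc16a3 rose 1.37-fold (log2 fold change 0.44, SE 0.04, limma adjusted p = 1.49e-05). Slc16a1, a widespread transporter that carries lactate either way, had 41.8, 44.0 and 42.7 TPM after co-culture and 48.5, 47.9 and 49.6 TPM in controls. It fell (-0.18, SE 0.04, limma adjusted p = 0.00856), again without overlap. The share of Slc16a3 in the sum of the pair was 68.9 ± 1.31% after co-culture and 58.8 ± 0.861% in controls (SD, n = 3 each), and the sum itself was 16.6% higher. For the share, exact permutation of the libraries (two-sided) gave p = 0.1, the smallest that 3 against 3 libraries allow, and 0.167 adjusted over the 10 shares tested.

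**Figure D2:**
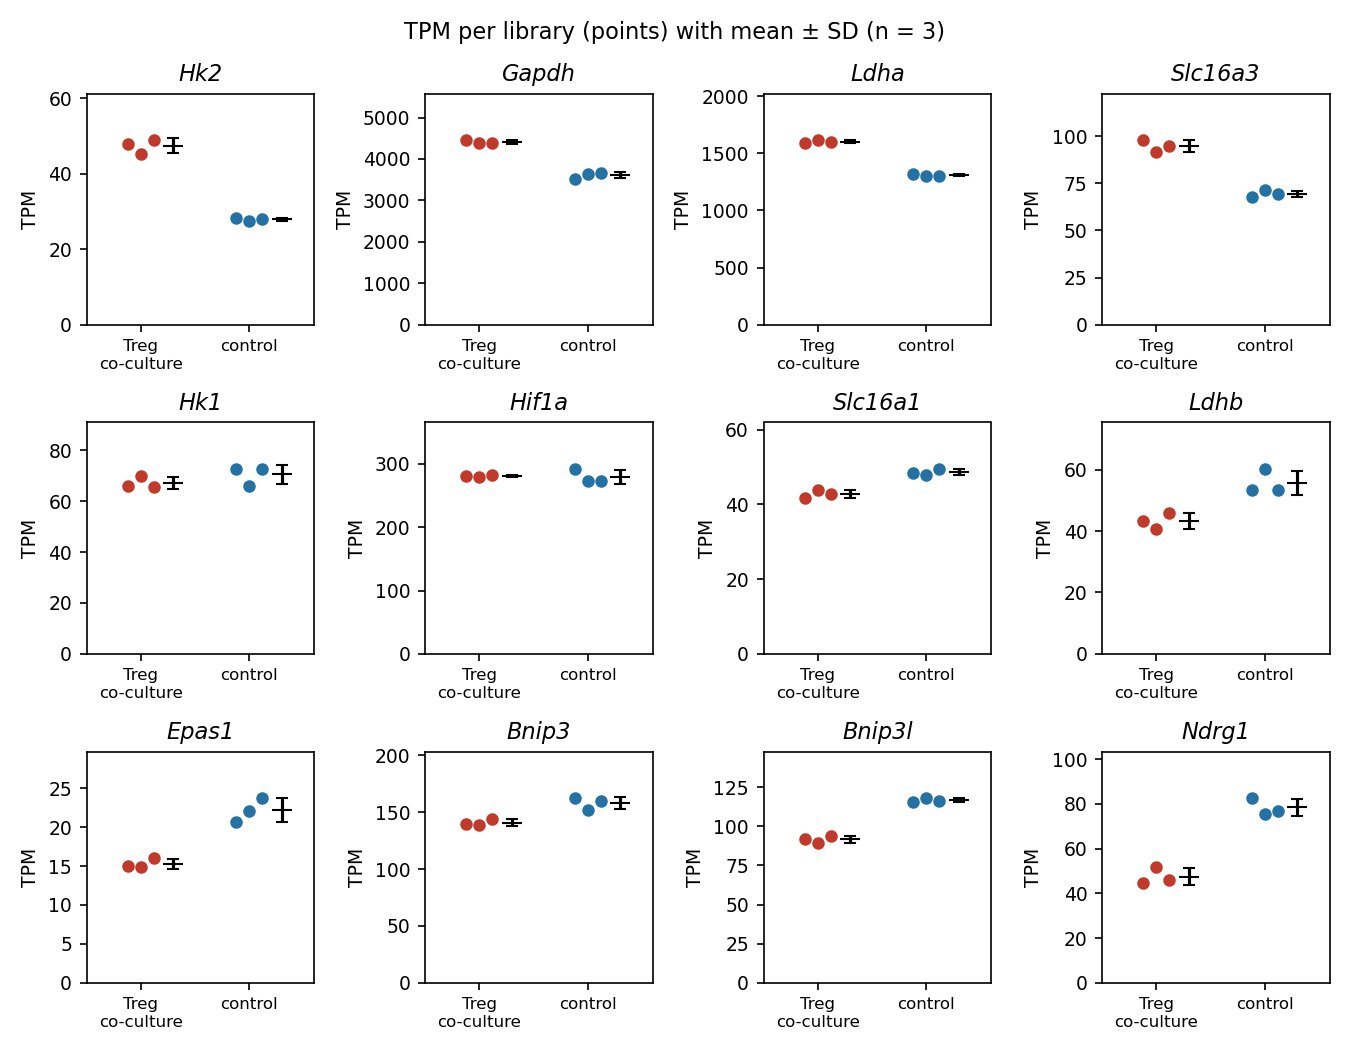
TPM of 12 members in each library (points; 3 Treg co-culture libraries left, 3 controls right) with mean ± SD, each axis starting at 0. Hk2, Gapdh, Ldha and Slc16a3 sit above their controls without overlap, Hk1 and Hif1a overlap, and Slc16a1, Ldhb, Epas1, Bnip3, Bnip3l and Ndrg1 sit below.

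Hexokinase, which traps glucose in the cell, shifted towards its inducible form. Hk2, the insulin- and HIF-responsive hexokinase of muscle and fat, had 48.0, 45.2 and 49.1 TPM in Treg co-culture 1 to 3 and 28.3, 27.6 and 28.1 TPM in controls 1 to 3. The groups were far apart, and Hk2 rose 1.70-fold, the largest increase among the 34 members (log2 fold change 0.74, SE 0.05, limma adjusted p = 1.93e-06). Within batches 1 to 3 its log2 difference was 0.74, 0.69 and 0.78. Hk1, the housekeeping hexokinase, had 65.8, 70.0 and 65.7 TPM after co-culture and 72.7, 66.0 and 72.7 TPM in controls, with overlapping groups (-0.07, 95% interval -0.18 to 0.04, limma adjusted p = 0.313). Hk2 therefore took 41.4 ± 1.89% of the hexokinase TPM after co-culture and 28.4 ± 0.883% in controls (SD, n = 3 each; exact permutation p = 0.1, adjusted 0.167). The third isoform, Hk3, stayed at or below 1.63 TPM in every library.

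At phosphofructokinase, the committing step, the differences were slight. The muscle subunit gene Pfkm had 41.9, 39.5 and 40.7 TPM after co-culture and 36.2, 37.4 and 34.8 TPM in controls and rose without overlap (0.17, SE 0.05, limma adjusted p = 0.0206). Its call was lost without control 3 (limma adjusted p = 0.0718), and likewise when either Treg co-culture 1 (0.0774) or Treg co-culture 3 (0.0535) was left out. The liver subunit gene Pfkl, the most abundant of the family, stood at 98.2 ± 1.49 TPM after co-culture and 96.9 ± 1.74 TPM in controls, and the platelet subunit gene Pfkp at 58.4 ± 0.512 TPM after co-culture and 54.3 ± 1.36 TPM in controls (SD, n = 3 each), neither past the threshold (limma adjusted p = 0.711 and 0.0681). Pfkm made up 20.6 ± 0.643% of the family after co-culture and 19.3 ± 0.507% in controls, without overlap. Of the bifunctional enzymes that set the level of phosphofructokinase's activator, Pfkfb4 had a higher mean after co-culture and Pfkfb3 a lower one. Only Pfkfb4 passed the test. Pfkfb4 had 7.29, 8.87 and 8.16 TPM after co-culture and 6.38, 4.69 and 6.16 TPM in controls and rose (0.44, SE 0.12, limma adjusted p = 0.0168), a call lost when control 2 or Treg co-culture 2 was left out (limma adjusted p = 0.0545 and 0.0646). Pfkfb3, usually the more hypoxia-responsive in other cells, had 19.9, 20.02 and 21.0 TPM after co-culture and 24.1, 21.4 and 22.1 TPM in controls (-0.14, limma adjusted p = 0.110).

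Of the abundant member enzymes from Gpi1 to Ldha, all but Gpi1 rose, by 0.12 to 0.29 on the log2 scale. Gapdh, the dehydrogenase that makes NADH in glycolysis and a common reference gene, had 4464, 4393 and 4388 TPM in Treg co-culture 1 to 3 and 3524, 3636 and 3653 TPM in controls 1 to 3. It rose 1.22-fold (log2 fold change 0.29, SE 0.02, limma adjusted p = 7.57e-07). Ldha, the lactate dehydrogenase subunit of glycolytic tissue, had 1592, 1619 and 1599 TPM after co-culture and 1316, 1306 and 1299 TPM in controls, a 1.23-fold rise (0.29, SE 0.02, limma adjusted p = 5.77e-07). In both genes the gap between groups was wider than the whole range within either. The ATP-forming kinases Pgk1 and Pkm rose by 0.17 and 0.18 on the log2 scale (SE 0.02 each), to 885 ± 4.44 and 1602 ± 13.3 TPM after co-culture, against 785 ± 2.34 and 1415 ± 12.9 TPM in controls (SD, n = 3 each). The triose isomerase gene Tpi1 rose by 0.16 and the aldolase gene Aldoa by 0.12 (limma adjusted p = 0.000494 and 0.00198). Aldoa had 1781, 1788 and 1786 TPM after co-culture and 1577, 1659 and 1679 TPM in controls, and its call was lost under quantile normalization (0.05, limma adjusted p = 0.221) and without limma's mean-variance trend (limma adjusted p = 0.0638). Gpi1, which follows hexokinase, had 420 ± 3.74 TPM after co-culture and 405 ± 6.42 TPM in controls and did not pass (0.05, limma adjusted p = 0.107).

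Most enzymes that rose were abundant ones. Of the 7 enzymes with a mean of at least 300 TPM, 6 rose and none fell, and the groups of all 7 did not overlap. Of the 9 below 300 TPM, 3 rose and 2 fell. Abundant genes were called more often in general: among 475 tested genes of at least 300 TPM, 38.3% rose and 29.1% fell (67.4% in all), and groups did not overlap for 74.3% (42.9% higher and 31.4% lower), with a median log2 fold change of 0.03 against 0.17 for the 7 enzymes.

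The 2 enzymes that fell were minor isoforms of steps whose main isoform rose. Ldhb, the lactate dehydrogenase subunit of oxidative tissue, had 43.2, 40.5 and 45.8 TPM in Treg co-culture 1 to 3 and 53.3, 60.3 and 53.3 TPM in controls 1 to 3, without overlap (-0.36, SE 0.06, limma adjusted p = 0.00127). Aldoc, the brain aldolase, had 2.18, 2.58 and 2.30 TPM after co-culture and 5.52, 5.51 and 3.70 TPM in controls (-0.80, SE 0.15, limma adjusted p = 0.00203). Control 3 lay nearest to the co-culture values of Aldoc but still above all of them. Ldhb held 2.62 ± 0.171% of lactate dehydrogenase TPM after co-culture and 4.08 ± 0.287% in controls, and Aldoc 0.131 ± 0.0113% of aldolase TPM after co-culture and 0.2999 ± 0.0699% in controls (SD, n = 3 each; exact permutation p = 0.1 for each, adjusted 0.167). The falls of Ldhb and Aldoc thus took little from their steps.

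**Figure D3:**
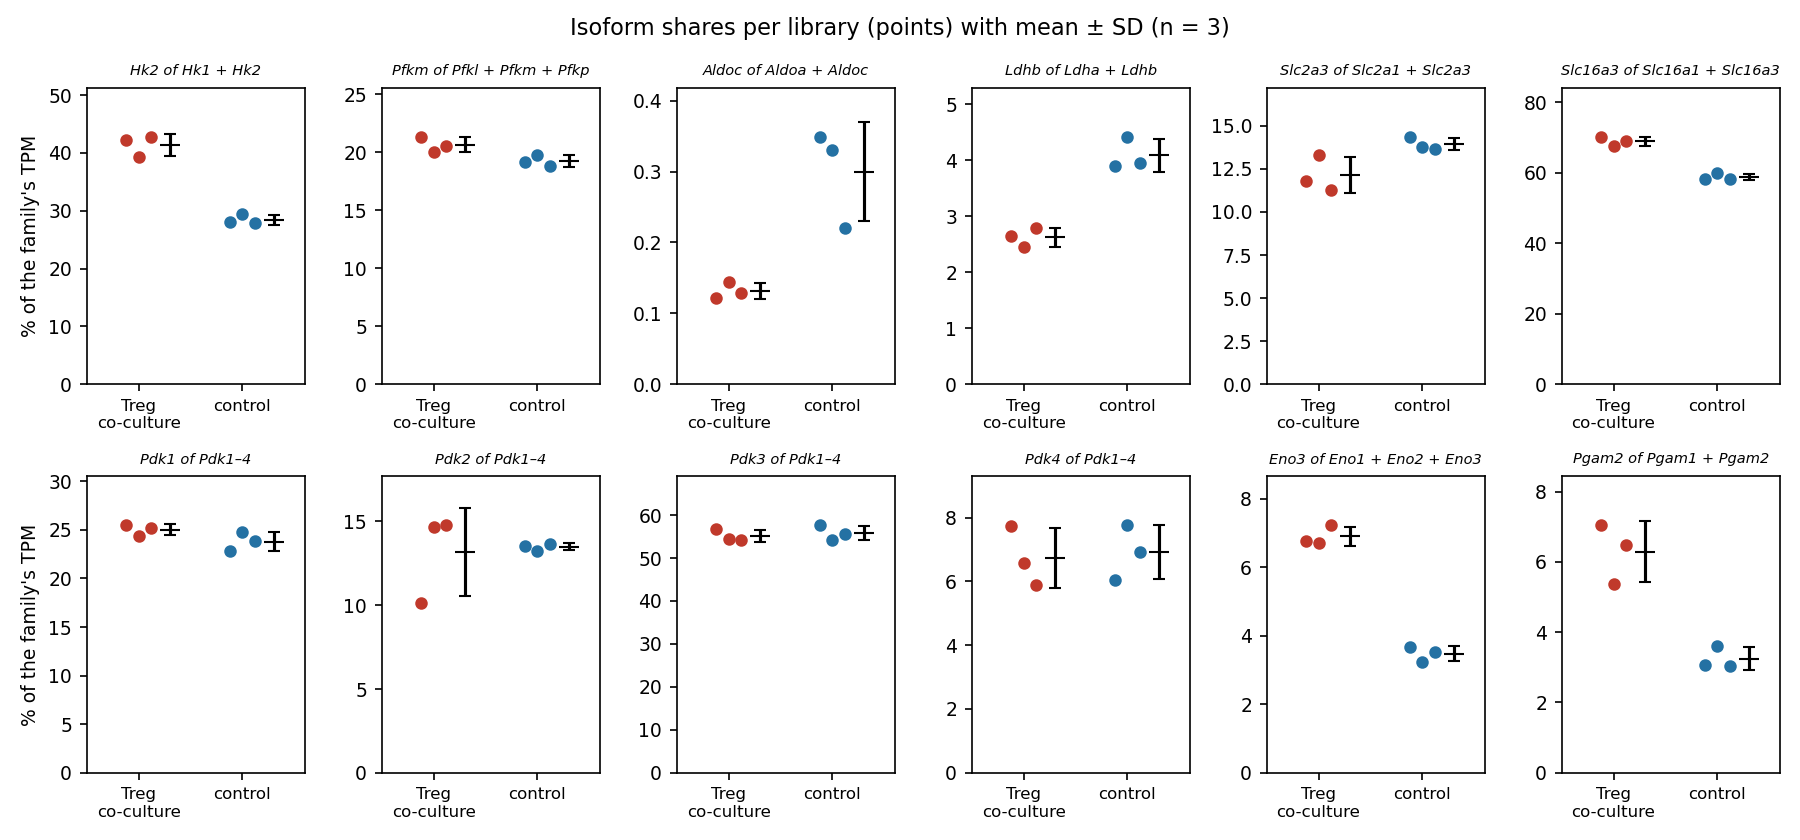
Share of each isoform in the TPM of its family in each library (points; Treg co-culture left, control right) with mean ± SD (n = 3 each); each axis starts at 0 and has its own scale. Hk2 and Slc16a3 gained about 13.0 and 10.1 percentage points, Ldhb and Aldoc lost share, and the 4 pyruvate dehydrogenase kinases kept overlapping shares.

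Genes of the pathway beside the members included muscle isoforms that rose. Of 26 other glycolysis genes, 17 were tested, 6 rose and 2 fell (35.3% and 11.8%, against 19.8% and 18.0% of all genes tested). Eno3, the muscle enolase, had 156, 157 and 164 TPM in Treg co-culture 1 to 3 and 69.7, 63.1 and 68.5 TPM in controls 1 to 3 and rose 2.37-fold (log2 fold change 1.23, limma adjusted p = 2.09e-08). Pgam2, the muscle phosphoglycerate mutase, had 54.2, 40.7 and 49.2 TPM after co-culture and 19.8, 22.8 and 20.5 TPM in controls (1.15, limma adjusted p = 9.21e-06). Both muscle forms thus lay above every control by a wide margin and moved further than any of the 34 members. The widespread forms rose as well, Eno1 from the same list by 0.21 and Pgam1, named outside the rule for such genes, by 0.18. The neuronal enolase Eno2 fell (-0.65, limma adjusted p = 0.000598), to 10.1 ± 1.35 TPM after co-culture, against 16.4 ± 1.35 TPM in controls (SD, n = 3 each). Adpgk, a glucokinase that uses ADP, rose by 0.25 and Minpp1, a phosphatase able to act on a glycolytic intermediate, by 0.22. In a share chosen after the values were seen, Eno3 held 6.91 ± 0.275% of enolase TPM after co-culture and 3.48 ± 0.213% in controls, and Pgam2 held 6.29 ± 0.857% of mutase TPM after co-culture and 3.24 ± 0.326% in controls. Bsg, the chaperone of the lactate transporters, also named outside that rule, fell to 785 ± 1.09 TPM after co-culture, against 880 ± 8.79 TPM in controls (-0.16, limma adjusted p = 6.37e-05).

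Set out step by step, the summed transcripts of all 11 reactions from hexokinase to lactate dehydrogenase were higher in every co-culture library than in any control. The mean difference ran from 3.57% at glucose-6-phosphate isomerase and 5.27% at phosphofructokinase through 8.75% at aldolase, 11.5% at triose-phosphate isomerase, 12.7% at phosphoglycerate kinase and 13.3% at pyruvate kinase. It was 16.4% at hexokinase, 17.2% at phosphoglycerate mutase, 19.5% at enolase, 20.8% at lactate dehydrogenase and 22.5% at Gapdh. The upper steps after hexokinase therefore differed least. These sums are descriptions without a test, and transcripts do not measure flux.

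**Figure D4:**
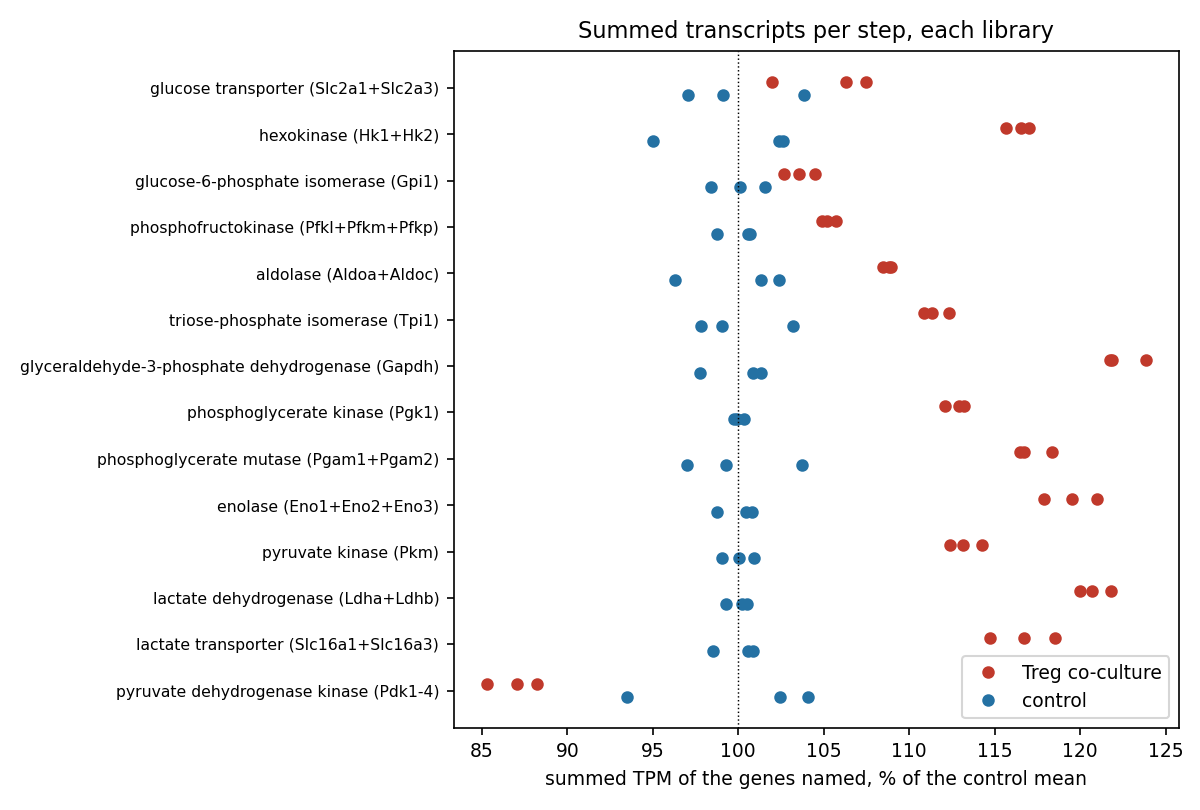
Summed TPM of the genes of each step in every library, as a percentage of the mean of the 3 controls (Treg co-culture above, control below; dotted line at 100%). From hexokinase to lactate dehydrogenase and at the lactate transporters the co-culture points lie to the right of all controls, at the glucose transporters they overlap, and at the pyruvate dehydrogenase kinases they lie to the left.

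Pyruvate dehydrogenase kinases, which shut the entry of pyruvate into mitochondria and are induced by hypoxia (Pdk1) or fasting (Pdk4), did not follow the enzymes. Pdk3, the most abundant of the family, had 68.3, 64.2 and 66.1 TPM in Treg co-culture 1 to 3 and 83.0, 70.2 and 78.7 TPM in controls 1 to 3 and fell (-0.22, SE 0.06, limma adjusted p = 0.0141). Its groups did not overlap, but the call was lost without Treg co-culture 2 (limma adjusted p = 0.0519) and without the mean-variance trend (0.0551). Pdk1 had 30.7, 28.8 and 30.8 TPM after co-culture and 32.9, 32.0 and 33.8 TPM in controls, also without overlap (-0.12, limma adjusted p = 0.0863). Pdk2 had 12.2, 17.3 and 18.0 TPM after co-culture, where Treg co-culture 1 was the low one, and 19.5, 17.2 and 19.4 TPM in controls (-0.24, limma adjusted p = 0.162). Pdk4 had 9.33, 7.76 and 7.21 TPM after co-culture and 8.73, 10.03 and 9.83 TPM in controls (-0.22, limma adjusted p = 0.134), and passed without Treg co-culture 1 (-0.31, limma adjusted p = 0.0470). The summed kinases came to 120 ± 2.05 TPM after co-culture and 138 ± 7.90 TPM in controls (SD, n = 3 each), while the share of each kinase overlapped between groups. Among 11 genes of the dehydrogenase complex and of pyruvate entry, the subunit genes Dlat (0.17) and Dld (0.15) rose, 18.2% against 19.8% of all genes tested. The phosphatase gene Pdp1, which reverses the kinases, fell to 11.3 ± 0.404 TPM after co-culture, against 19.2 ± 1.14 TPM in controls (-0.71, limma adjusted p = 3.44e-05).

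The HIF alpha subunits differed from each other. Hif1a, the widespread subunit, which is controlled mainly through its protein, had 281, 279 and 283 TPM in Treg co-culture 1 to 3 and 292, 273 and 274 TPM in controls 1 to 3. The groups overlapped (0.01, 95% interval -0.06 to 0.08, limma adjusted p = 0.880), and the sign of this small difference turned under quantile normalization (-0.021) and without control 2 or control 3. Epas1, the alpha subunit typical of endothelial and stromal cells, had 15.0, 14.9 and 15.97 TPM after co-culture and 20.6, 22.1 and 23.8 TPM in controls and fell 1.45-fold by the means (-0.51, SE 0.07, limma adjusted p = 0.000289). Egln1, the main HIF prolyl hydroxylase, had 60.5, 60.0 and 59.6 TPM after co-culture and 63.5, 69.0 and 64.6 TPM in controls (-0.13, SE 0.04, limma adjusted p = 0.0394). That call did not hold with the batch as a replicate block (limma adjusted p = 0.0557), without the mean-variance trend (0.0785) or without any one of control 2, control 3 and the 3 co-culture libraries (0.0615 to 0.134). Egln3, the hydroxylase most strongly induced by HIF, had 24.5 ± 0.538 TPM after co-culture and 24.1 ± 1.33 TPM in controls (SD, n = 3 each; 0.03, limma adjusted p = 0.771). Of 15 other genes of the HIF pathway tested, 1 rose and 2 fell (6.67% and 13.3%, both below the 19.8% and 18.0% of all genes tested). These were Eloc, the elongin subunit of the ligase that degrades HIF alpha (0.25), Arnt, the partner of the alpha subunits (-0.24), and the membrane-bound prolyl hydroxylase P4htm (-0.35).

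Most of the hypoxia targets outside glycolysis among the members were lower. Ndrg1, a stress- and differentiation-induced gene that HIF raises strongly, had 44.4, 51.7 and 46.1 TPM in Treg co-culture 1 to 3 and 82.8, 75.6 and 77.1 TPM in controls 1 to 3. The groups lay far apart, with a 1.66-fold lower mean after co-culture (log2 fold change -0.72, SE 0.06, limma adjusted p = 9.04e-06) and batch differences of -0.88, -0.54 and -0.73. Bnip3l, a mitophagy receptor gene, had 92.1, 89.5 and 93.6 TPM after co-culture and 116, 118 and 116 TPM in controls (-0.35, SE 0.03, limma adjusted p = 2.5e-05). Bnip3, its paralog, had 139, 139 and 144 TPM after co-culture and 163, 152 and 160 TPM in controls (-0.17, SE 0.03, limma adjusted p = 0.00358). Both mitophagy receptor genes fell without overlap, the less abundant Bnip3l further. Kdm3a, a histone demethylase gene that needs oxygen and is induced when it is short, had 30.5, 28.8 and 31.3 TPM after co-culture and 35.5, 33.6 and 39.1 TPM in controls and fell (-0.25, SE 0.06, limma adjusted p = 0.0117).

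The remaining hypoxia targets were scarce. Car9, the carbonic anhydrase often used as a hypoxia marker, had 0.453, 0.472 and 1.37 TPM in Treg co-culture 1 to 3 and 1.204, 1.99 and 1.54 TPM in controls 1 to 3. Treg co-culture 3 overlapped the controls, and Car9 did not pass (-0.58, SE 0.23, limma adjusted p = 0.0697) except without that library (-0.81, limma adjusted p = 0.0159). Car9 reached the filter of 1 TPM only through the controls, so that call is no support for a fall. Its log2 fold change depended on the pseudocount and was -1.09 with 0.1 and -1.20 with 0.01 in place of 1, with the call unchanged. Ankrd37, an ankyrin repeat gene known mainly as a HIF target, had 4.16, 4.59 and 3.35 TPM after co-culture and 3.82, 4.16 and 4.13 TPM in controls (-0.01, 95% interval -0.29 to 0.27, limma adjusted p = 0.969). No difference in Ankrd37 was detectable at this level.

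A longer list of hypoxia targets, chosen with earlier results of these data known, moved in both directions. Of 45 genes 44 were tested, 10 rose and 17 fell (22.7% and 38.6%, against 19.8% and 18.0% of all genes tested), with a median of -0.06. The falls were led by the vasodilator peptide gene Adm (-1.23), the glycoprotein hormone gene Stc1 (-0.80) and the lipase inhibitor gene Angptl4 (-0.72). Adm had 136, 144 and 146 TPM in Treg co-culture 1 to 3 and 335, 330 and 340 TPM in controls 1 to 3. Adm lay far below its controls in every co-culture library. Genes that rose included the deacetylase complex gene Sap30 (0.65) and the transferrin receptor gene Tfrc (0.57).

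Neighbouring sugar pathways were mixed. Of 8 pentose phosphate genes 2 rose, Taldo1 (0.23) and Pgd (0.18), a share of 25.0% that is near the 19.8% of all genes tested, and the other 6 had higher means without passing. Of 12 tested gluconeogenesis and glycogen genes, 4 rose and 6 fell, against 19.8% and 18.0% of all genes tested. Pygm, the muscle glycogen phosphorylase, rose to 17.8 ± 0.854 TPM after co-culture, against 12.8 ± 0.518 TPM in controls (0.45, limma adjusted p = 0.000653). The brain form Pygb fell (-0.40), as did glycogenin, Gyg (-0.46), the phosphatase gene G6pc3 (-0.25) and the glycogen-targeting subunit gene Ppp1r3b (-0.28). The call of Ppp1r3b was lost with the batch as a replicate block (limma adjusted p = 0.0568), which leaves 5 that fell. Ppp1r3c, a second targeting subunit and a HIF target, had 2.32, 2.85 and 1.85 TPM in Treg co-culture 1 to 3 and 6.71, 8.28 and 6.93 TPM in controls 1 to 3 (-1.32, limma adjusted p = 4.48e-05). No co-culture library reached the lowest control value of Ppp1r3c.

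**Figure D5:**
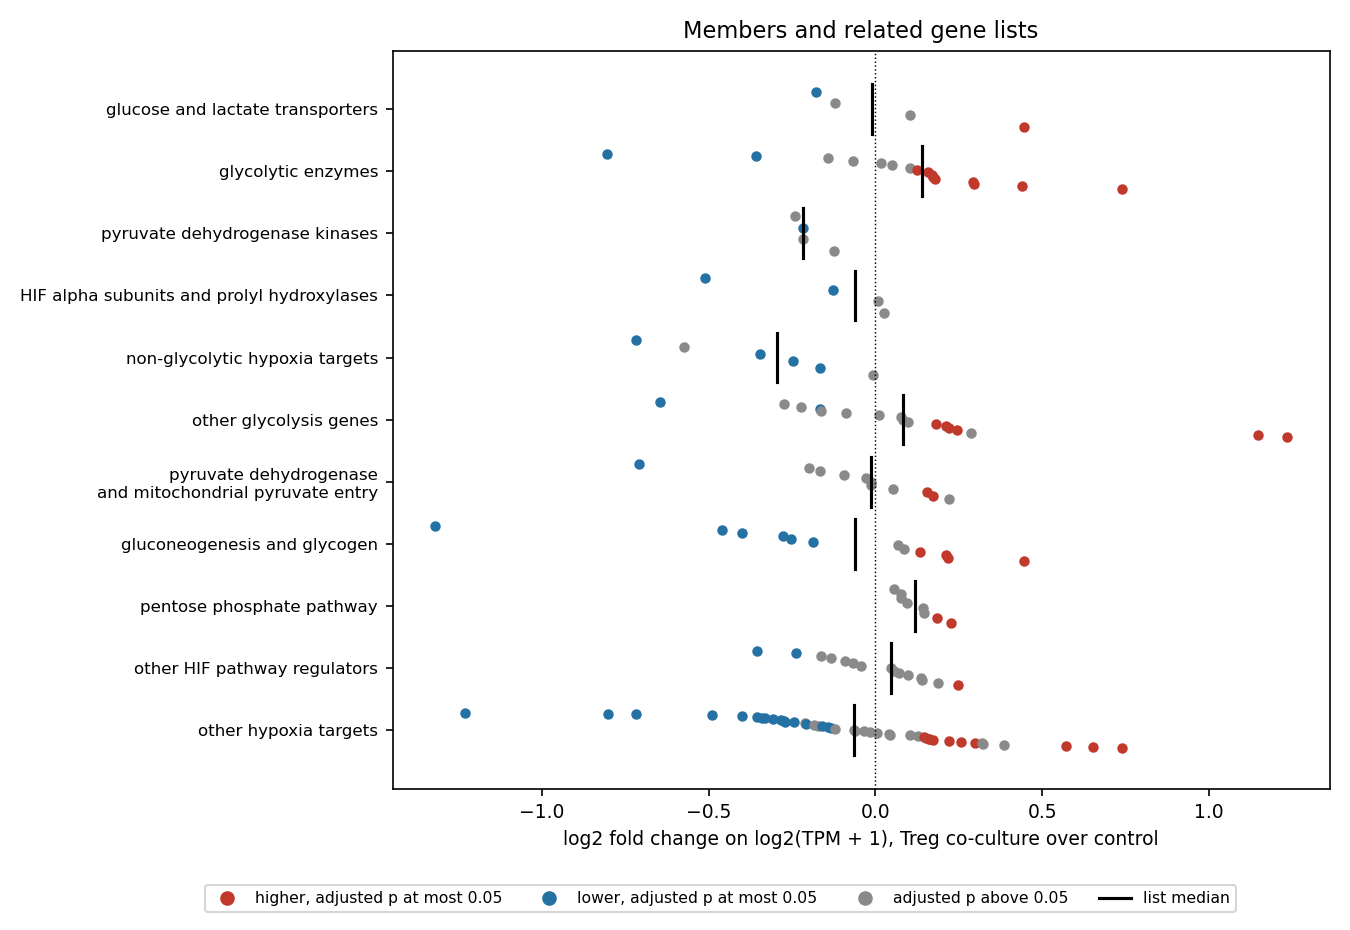
Log2 fold change on log2(TPM + 1), Treg co-culture over control, of every tested gene in the member lists and in the related lists (points; black bar: list median). Of the 16 enzymes (median 0.14) 12 lie right of 0, all 6 non-glycolytic hypoxia targets (median -0.30) lie left of it, and the 2 rightmost points are the muscle isoforms Eno3 and Pgam2. Car9, among these targets, reached the filter on low values only through the controls.

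Without Treg co-culture 1 the enzymes that rose numbered 8, those that fell 2, and 4 hypoxia targets outside glycolysis fell. The listed near-identical copies were scarce: Gapdhs, Pgk2, Ldhc, Aldoart1 and Aldoart2 were listed at 0 in every library, and Eno1b at no more than 3.25 TPM. The sources used here do not say how reads shared with pseudogenes of Gapdh, Ldha, Pgk1 and Tpi1 were assigned, so the values of these genes are uncertain to that extent.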

How the data were processed

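The authors deposited TPM values of 6 libraries in 1 table whose rows carry NCBI Gene numbers, per the file headers. TPM are corrected for gene length and sum to 1000000 in each library, so depth is unknown, no counting interval can be given, and values are relative to all other transcripts. Per the labels' protocols, Trizol RNA was enriched for mRNA on capture beads and fragmented by heat. The submitters' processing notes name GRCm38, mm10 and GRCm39 with no role. Aligner and counter: not given in the sources used here.

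Symbols came from an NCBI RefSeq gene table of GRCm38.p6 (21992 of 22186 matched). The 12405 genes whose mean over the 6 libraries reached 1 TPM were tested on log2(TPM + 1), which understates the change of low genes, with limma 3.58.1 (R 4.3.3; mean-variance trend, no block), Benjamini-Hochberg adjusted over all genes tested at 0.05. SE and 95% intervals are limma's. Isoform shares were set as percentages of summed TPM and tested by exact permutation over the 20 arrangements of libraries. Python 3.11.15, pandas 2.3.3 and matplotlib 3.10.9 were used for tables and plots.

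The members, lists and tests were chosen with earlier results of these data known. All 34 members were described. Of related lists, genes past the threshold without overlap were named, up to 6 per list by size of change, and the most abundant marker of each marker list; a gene this rule names is not reported here. Batch numbers in the labels pair the libraries, and the fit with this block was an alternative, although libraries of 1 batch hardly deviated together (r of their deviations 0.0115, -0.0146 and 0.00402). Other alternatives were other pseudocounts, filters, scalings, variance models and thresholds, and each library left out in turn.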

Additional observations from a re-analysis of the deposited data

How the results depend on the processing

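With each library left out in turn, 8 to 9 enzymes rose and 2 fell, 0 hypoxia targets outside glycolysis rose and 4 to 5 fell, 9 to 10 of all members rose and 8 to 10 fell, and 3977 to 4218 of all genes passed. At an adjusted p of 0.01, 3043 of all genes passed, against 4688, and the calls of Pfkm, Pfkfb4, Pdk3, Egln1 and Kdm3a were lost, so that 7 enzymes rose, 3 hypoxia targets outside glycolysis fell, and 8 of all members rose and 7 fell. The 5 hypoxia targets that fell without Treg co-culture 3 include Car9, whose call there is no support for a fall, as it reached the filter only through the controls. With a filter of 5 TPM the enzymes that fell numbered 1, since Aldoc was not tested. With the batch as a replicate block 9 enzymes rose and 9 members fell, and Egln1 was the 1 member whose call changed. Beside the members, the block ended the calls of Ppp1r3b and Eng. The summed enzyme difference was 1645 TPM, ran from 1583 to 1676 TPM over the libraries left out, and was 834 TPM without Gapdh.

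The Hk2 and Slc16a3 shares differed by 12.3 to 14.03 and 9.45 to 10.8 percentage points, Pfkm by 1.04 to 1.68 and Pdk1 by 0.736 to 1.70, Ldhb by -1.56 to -1.296, Aldoc by -0.208 to -0.144 and Slc2a3 by -2.39 to -1.39 with a library left out. Those of Pdk2 (-1.09 to 1.22), Pdk3 (-1.56 to 0.146) and Pdk4 (-0.681 to 0.242) changed sign. Among members that did not pass, log2 fold changes turned sign under quantile normalization for Pfkl (-0.0061) and Hif1a (-0.021), and, over the libraries left out, for Hif1a (-0.010 to 0.039), Egln3 (-0.017 to 0.058) and Ankrd37 (-0.087 to 0.094). The causes were not tested. Of 643 comparisons of a member's log2 fold change with an alternative, 607 kept direction and side of the threshold. With depth unknown, what limits Car9, Ankrd37 and Aldoc at their low TPM cannot be stated as counts.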
